A study of Mus musculus with 8 samples.

Results

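The genes described here encode nucleolar proteins that make ribosomes. A list of 48 such genes was used, chosen by symbol for what their products are known to do. No measured value enters that rule, but the list was drawn up with earlier results of these data known. Of these, 47 had at least 1 probe set annotated to that gene alone, and all 47 passed the filter on low signal. The exception was Mrto4, a large subunit assembly factor, whose probe set was also annotated to other genes. The 47 genes stood among 11643 tested genes, and their 96 probe sets, of which 91 were tested, among 45101.

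Total RNA of mouse cells was hybridized to Affymetrix expression arrays, 1 array per sample and 8 in all. NIH3T3 is an embryonic fibroblast line of the mouse, and B16F10 is derived from a mouse melanoma. Cells of each line had been infected with virus to express PGC7, also called Stella or Dppa3, a protein of oocytes and early embryos that protects DNA methylation. The NIH3T3 PGC7 group held 2 clones and 1 uncloned mixture of clones (n = 3), set against 1 NIH3T3 control array. The B16F10 PGC7 group held 3 clones (n = 3), set against 1 B16F10 control array. All were grown in the same serum-containing medium. No source used here gives the promoter that drove PGC7, or whether the controls had received a virus without it. The genotype label names the introduced gene PGC8 for all 6 PGC7 samples and calls the clones uncloned, so the groups follow the sample titles. Each clone is 1 expanded cell lineage, and the cell line cannot be told apart from any array batch.

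Ribosomes are assembled largely in the nucleolus. RNA polymerase I transcribes the ribosomal RNA precursor there, small nucleolar ribonucleoproteins modify it, and large sets of assembly factors cut, fold and package it into the small and the large subunit. Growing cells make much of this machinery, and the transcription factors Myc and Mycn are known to bind and activate many of its genes through a short DNA element called the E-box. The comparison of interest was therefore how these genes stood beside Mycn. At its brightest probe set, but not at its others, Mycn was far higher in the NIH3T3 PGC7 arrays than in their control.

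Signals below are deposited intensities after each array was scaled to a trimmed mean of 500, in arbitrary units. They are given in the order clone 1, clone 2 and uncloned culture for NIH3T3 PGC7, and clone 1, clone 2 and clone 3 for B16F10 PGC7, followed by the control. Changes are the mean of the 3 PGC7 arrays minus the control on the log2(signal + 9) scale, with the standard error of the limma fit, and understate the change of dim probe sets. A gene stands by its brightest tested probe set and was called where its p, adjusted by the Benjamini-Hochberg method, was under 0.05. The controls, at 1 array a line, show no spread themselves, so the fit takes their variance from the PGC7 arrays. It takes 1 variance per probe set from both lines together, so the standard error is the same in both. Over all tested genes the median SD among PGC7 arrays was 0.211 in NIH3T3 and 0.116 in B16F10. With the arrays of a line alone, 0 of the 47 genes were called lower in NIH3T3 and 29 in B16F10. Of all tested genes 2.11% and 4.29% were called lower in those fits. Nothing says that the samples came from separate infections, so the p-values cover only how these samples spread, which may be technical, and the number of arrays limits the precision.

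The lines carried their own markers. The summed signal of 8 fibroblast markers was 79254 to 87947 in NIH3T3 PGC7 arrays against 118044 in NIH3T3 control, and that of 8 melanocyte markers 117803 to 135619 in B16F10 PGC7 clones against 104820 in B16F10 control. The fibroblast markers did not move one way in NIH3T3. The collagen gene Col1a1 had 367, 503 and 703 in NIH3T3 PGC7 arrays against 23293 in NIH3T3 control, and Dcn had 16483, 20066 and 18715 against 13826. The summed signal of 5 macrophage markers was 854 to 1077 against 431. Among them Cd14 had 520, 578 and 471 against 131, and Csf1r 164, 155 and 120 against 163. The probe set for the mouse Dppa3 gene had 29.7, 55.4 and 101 in NIH3T3 PGC7 arrays against 69.8 in NIH3T3 control (adjusted p = 0.802). It had 70.0, 117 and 71.0 in B16F10 PGC7 clones against 23.5 in B16F10 control (adjusted p = 0.270). Whether the introduced sequence holds the stretch that this probe set reads is not given, so it does not settle the labels, and PGC7 below means arrays labelled so.

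In NIH3T3 the genes did not move one way. None of the 47 genes was called higher, where 7.87% of all tested genes were, and 3 (6.38%) were called lower, where 7.35% of all tested genes were. At an unadjusted p under 0.05 the limma count was 8 of 47 in either direction (17.0%), against 31.9% of all tested genes. The median change was -0.02, against -0.04 over all tested genes, with 21 genes positive and 26 negative. All 3 PGC7 arrays lay above the control in 12 genes (25.5%) and below it in 16 (34.0%), against 31.2% and 36.5% of all tested genes. The shares called lower, or with all arrays on one side, were thus near those of all tested genes.

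In B16F10 nearly all of the genes lay below the control. None of the 47 was called higher and 9 (19.1%) were called lower, where 1.18% of all tested genes were called higher and 0.386% lower. At an unadjusted p under 0.05 the limma count was 37 of 47 in either direction (78.7%), against 17.98% of all tested genes. The median change over the 47 genes was -0.60, against 0.05 over all tested genes, and it was -0.57, -0.51 and -0.64 in clones 1, 2 and 3. In 45 of the 47 genes (95.7%) all 3 clones lay below the control, against 31.9% of all tested genes. In 1 gene, Npm1, all 3 lay above it, against 41.3% of all tested genes. In bulk RNA, fewer cells that express a gene and less RNA per cell cannot be told apart.

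**Figure D1:**
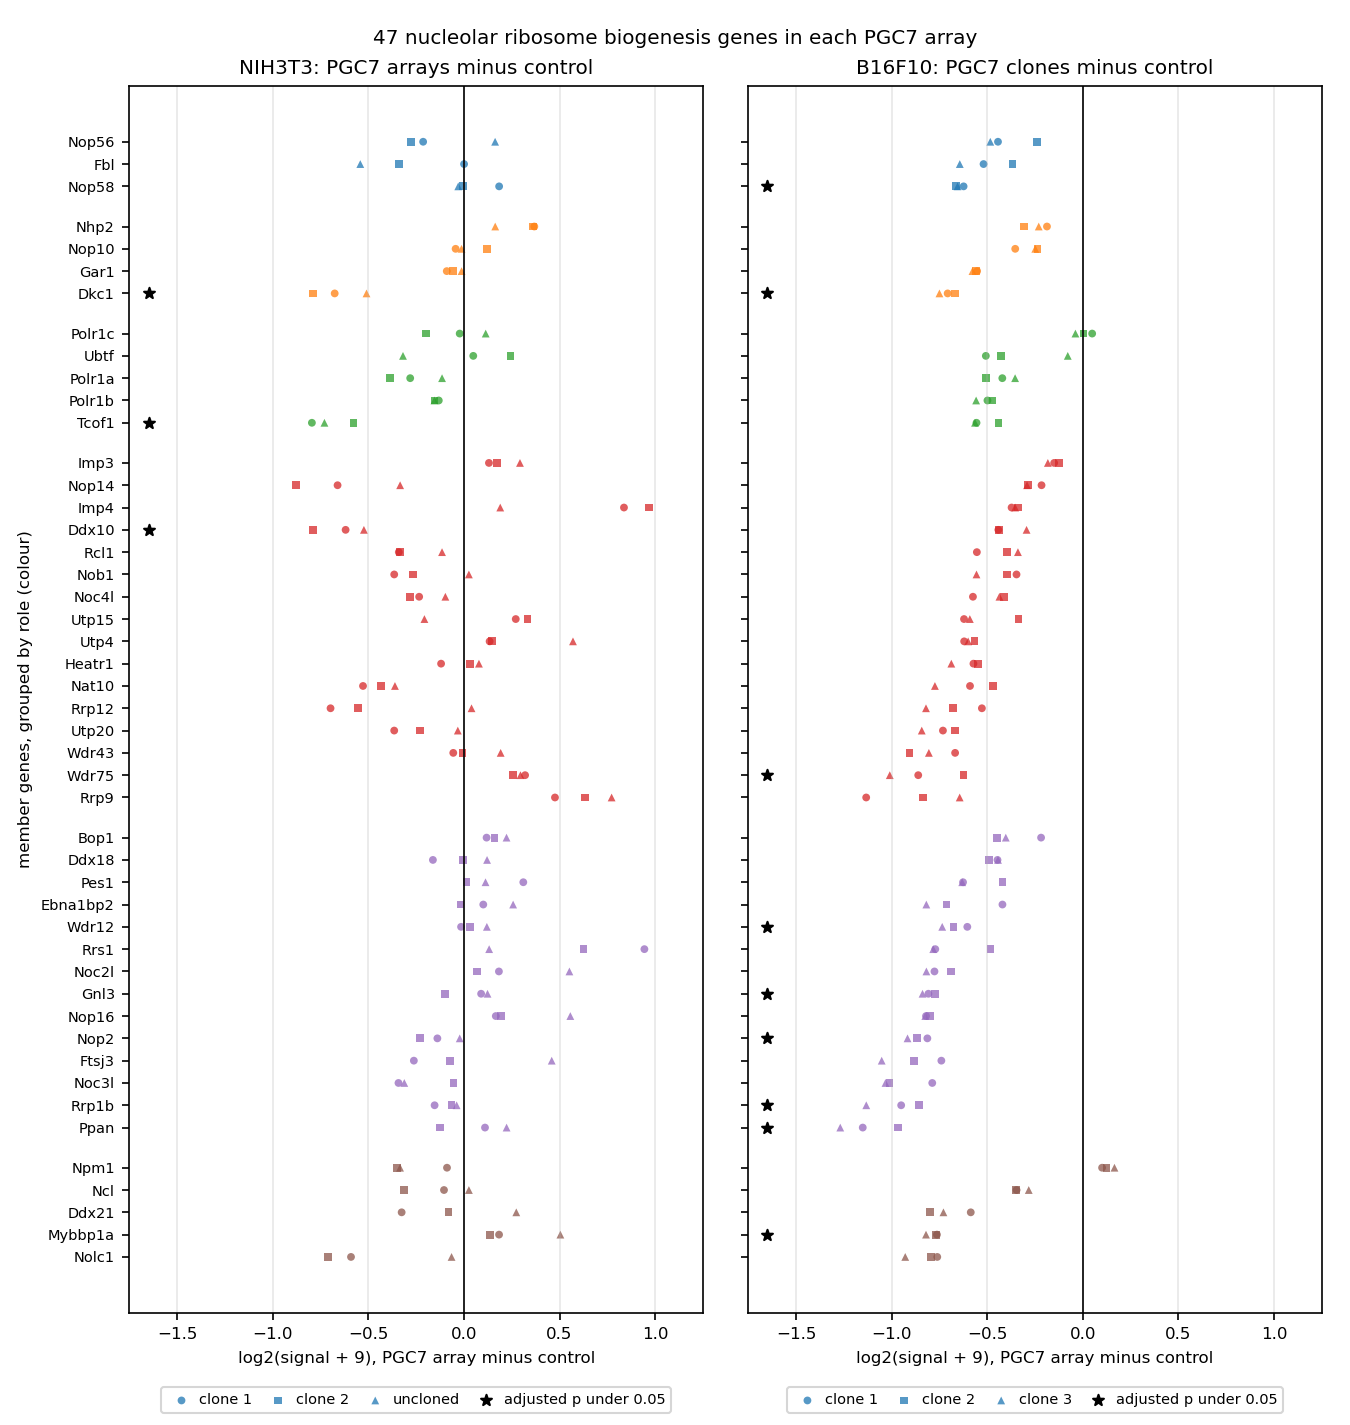
Change of each of 47 genes in each PGC7 array relative to the control of its line, in log2(signal + 9), with NIH3T3 on the left and B16F10 on the right. Genes are grouped by role (colour) and ordered within a role by their B16F10 change, symbols mark the arrays and stars the genes called at an adjusted p under 0.05. In B16F10 all 3 clones lie left of 0 for 45 genes, while in NIH3T3 the points lie on both sides.

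The number of B16F10 calls depended on single arrays. In each of the 6 fits that left out a PGC7 array 45 or 46 of the 47 genes were negative. These fits keep the B16F10 control array, and leaving out an NIH3T3 array leaves the B16F10 change of a probe set as it was. The direction was thus largely set beforehand. Of the 47 genes, 25 were called lower without the NIH3T3 uncloned array and 3 without NIH3T3 clone 2. The count was 0 without NIH3T3 clone 1, 0 without B16F10 clone 1, 1 without B16F10 clone 2 and 0 without B16F10 clone 3. In those 6 fits 3.40%, 0.180%, 0.119%, 0.0605%, 0.130% and 0.0346% of all tested genes were called lower, in the same order. In NIH3T3 the count of 3 lower genes became 5, with 2 higher, when the uncloned array was left out, where 14.5% of all tested genes were called lower and 13.3% higher. It became 1 when B16F10 clone 1 or clone 3 was left out, where 4.39% and 4.95% of all tested genes were called lower.

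The poly-A spikes, bacterial RNAs that the array kit adds to each sample, differed from the control by -0.10, -0.31 and -0.19 (log2) in the NIH3T3 PGC7 arrays and by 0.63, 0.38 and 0.81 in the B16F10 PGC7 clones. Scaling on these 12 spike probe sets instead of the trimmed mean moved the median of all tested genes to 0.15 in NIH3T3 and -0.53 in B16F10. Relative to the median of all tested genes, the 47 genes stood at 0.03 in NIH3T3 and -0.67 in B16F10 under spike scaling, and at 0.03 and -0.64 under the trimmed mean. Under spike scaling 32 of the 47 genes were positive in NIH3T3, and 43 were called lower in B16F10, where 9.81% of all tested genes were. The B16F10 count was 2 with quantile normalization, and 0 with the values as deposited or with no trend in the variance prior.

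The ribosomal RNA of the small subunit is transcribed by RNA polymerase I and read by 3 probe sets of the array. Its 5′ probe set had 357, 419 and 252 in NIH3T3 PGC7 arrays against 193 in NIH3T3 control, and 9512, 6100 and 10034 in B16F10 PGC7 clones against 4412 in B16F10 control. All PGC7 arrays lay above their control at all 3. Labelling starts from poly-A tails, and the part of this signal in the results here was not tested.

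The first step of ribosome production is transcription by RNA polymerase I. Polr1a and Polr1b encode its catalytic core, Polr1c a subunit shared with RNA polymerase III, Ubtf the factor that binds the ribosomal gene promoter, and Tcof1 the nucleolar protein treacle, which works with Ubtf. None of these 5 was called in B16F10, where 1.18% of all tested genes were called higher and 0.386% lower. Their median change there was -0.43.

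Polr1b had 788, 803 and 756 in B16F10 PGC7 clones, against 1118 in B16F10 control (-0.51 ± 0.15, adjusted p = 0.150). In NIH3T3 PGC7 arrays it had 579, 570 and 570, against 635 in NIH3T3 control (-0.15 ± 0.15, adjusted p = 0.564). All PGC7 arrays lay below their control in both lines, without passing the test.

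Ubtf had 1154, 1220 and 1556 in B16F10 PGC7 clones, against 1644 in B16F10 control (-0.34 ± 0.24, adjusted p = 0.563). In NIH3T3 PGC7 arrays it had 1756, 2011 and 1359, against 1698 in NIH3T3 control (-0.01 ± 0.24, adjusted p = 0.986). Clone 3 came close to the B16F10 control, and the NIH3T3 arrays lay on both sides of theirs. Polr1a had -0.43 in B16F10 and -0.26 in NIH3T3. Polr1c was one of the exceptions, with 0.00 in B16F10 and -0.04 in NIH3T3, and its B16F10 clones of 4688, 4543 and 4412 lay around the control of 4533.

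Tcof1 fell in NIH3T3. It had 413, 482 and 433 in NIH3T3 PGC7 arrays, against 723 in NIH3T3 control (-0.70 ± 0.16, adjusted p = 0.0240), so that all 3 lay clearly below it. Each of its 3 probe sets was called lower there, with -0.91, -0.71 and -0.70. In B16F10 it had 1068, 1157 and 1062 in PGC7 clones, against 1575 in control (-0.52 ± 0.16, adjusted p = 0.170).

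Modification of the precursor follows. Box C/D small nucleolar ribonucleoproteins add methyl groups to ribose through fibrillarin, encoded by Fbl, on a scaffold of Nop56 and Nop58. Nop58 had 2061, 1805 and 1776 in NIH3T3 PGC7 arrays against 1813 in NIH3T3 control (0.05 ± 0.12, adjusted p = 0.833). It fell in B16F10, with 6023, 5867 and 5892 in PGC7 clones against 9287 in control (-0.65 ± 0.12, adjusted p = 0.0485). The B16F10 clones lay close together and far from their control, while the NIH3T3 arrays surrounded theirs, and the lines differed by 0.70 ± 0.17 (adjusted p = 0.0473).

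Fbl had 6040, 6710 and 5541 in B16F10 PGC7 clones, against 8662 in B16F10 control (-0.51 ± 0.20, adjusted p = 0.266). It had 6503, 5134 and 4461 in NIH3T3 PGC7 arrays, against 6501 in NIH3T3 control (-0.29 ± 0.20, adjusted p = 0.368). Clone 1 of NIH3T3 equalled its control, and the other arrays of either line lay below. Nop56 had 6043, 6968 and 5876 in B16F10 PGC7 clones, against 8223 in B16F10 control (-0.39 ± 0.18, adjusted p = 0.358). In NIH3T3 it had 3105, 2973 and 4034 in PGC7 arrays, against 3603 in control (-0.11 ± 0.18, adjusted p = 0.741), with the uncloned array above the control and the clones below. The other Nop56 probe set had 2752, 3116 and 3869 in NIH3T3 PGC7 arrays, against 2653 in NIH3T3 control (0.28 ± 0.17, adjusted p = 0.337), all above it.

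Box H/ACA ribonucleoproteins turn uridine into pseudouridine, and their catalytic subunit dyskerin is encoded by Dkc1. Dkc1 was the member that fell in both lines. In NIH3T3 it had 1661, 1535 and 1865 in PGC7 arrays against 2660 in control (-0.66 ± 0.13, adjusted p = 0.0140). It had 5333, 5477 and 5176 in B16F10 PGC7 clones against 8712 in B16F10 control (-0.71 ± 0.13, adjusted p = 0.0468). In neither line did an array reach the control, and the changes of the lines differed by 0.05 ± 0.18 (adjusted p = 0.906).

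All 3 Dkc1 probe sets were called lower in B16F10, with -1.01, -0.71 and -0.74, and 2 of them in NIH3T3. Dkc1 is the only one of the 47 genes on the X chromosome. In NIH3T3 the 354 tested X-linked genes had a median of -0.22 in clone 1, -0.25 in clone 2 and -0.77 in the uncloned culture, where other genes had -0.04, -0.02 and -0.02. Dkc1 had -0.68, -0.79 and -0.51 in those arrays in that order, and the part of the X-linked shift in its fall was not tested. In B16F10 the X-linked medians were 0.06, 0.06 and 0.10.

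The other H/ACA proteins, Nop10, Nhp2 and Gar1, were lower than the control in every B16F10 clone without being called, with changes of -0.28, -0.24 and -0.56. In NIH3T3 they had 0.02, 0.30 and -0.05. Gar1 came nearest to a call in B16F10, with an adjusted p of 0.0528.

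Assembly of the small subunit begins on the growing transcript, in a large particle called the processome. Its proteins include Heatr1, Utp4, Utp15, Utp20, Wdr43, Wdr75, Nop14 and Noc4l, and Imp3, Imp4 and Rrp9 as parts of its guide ribonucleoprotein. Nat10 acetylates the RNA, Rcl1 and the helicase Ddx10 act in its processing, Rrp12 in export, and the nuclease Nob1 makes the last cut. In all 16 genes every B16F10 clone lay below the control, against 31.9% of all tested genes. The median was -0.56, with changes between -0.87 (Rrp9) and -0.15 (Imp3). Only Wdr75 was called lower (6.25%, against 0.386% of all tested genes). In NIH3T3 the median was -0.10, with 7 genes positive and 9 negative. Only Ddx10 was called there (6.25% lower, against 7.35% of all tested genes).

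Wdr75 had 2624, 2513 and 2580 in NIH3T3 PGC7 arrays, against 2101 in NIH3T3 control (0.29 ± 0.15, adjusted p = 0.248). It had 2909, 3430 and 2623 in B16F10 PGC7 clones, against 5292 in B16F10 control (-0.83 ± 0.15, adjusted p = 0.0453). Every B16F10 clone was thus below its control and every NIH3T3 array above its own. The difference, the NIH3T3 change minus the B16F10 change, was 1.12 ± 0.21 (adjusted p = 0.0202). A dimmer Wdr75 probe set had -0.31 in B16F10 (adjusted p = 0.792).

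Rrp9 had the largest difference between the lines among the 47 genes. In NIH3T3 it had 764, 854 and 941 in PGC7 arrays, against 547 in control (0.63 ± 0.22, adjusted p = 0.103). In B16F10 it had 321, 396 and 454 in PGC7 clones, against 714 in control (-0.87 ± 0.22, adjusted p = 0.111). The groups did not overlap in either line and lay on opposite sides of their controls. Neither change was called by itself, while the difference of 1.50 ± 0.32 was (adjusted p = 0.0284).

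Ddx10 fell in NIH3T3, with 859, 763 and 919 in PGC7 arrays against 1325 in control (-0.64 ± 0.16, adjusted p = 0.0324). In B16F10 it had 970, 974 and 1076 in PGC7 clones against 1321 in control (-0.39 ± 0.16, adjusted p = 0.291). All arrays lay below their control in both lines.

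Of the other 13 small subunit genes, Nop14 and Imp4 stood farthest apart in NIH3T3, with -0.62 (adjusted p = 0.0893) and 0.66 (adjusted p = 0.128). Imp3 and Utp4 had 0.20 and 0.28 there, with every PGC7 array above the control, and Utp15 and Wdr43 had 0.13 and 0.04. Heatr1 had -0.00, Noc4l, Nob1 and Rcl1 had -0.20, -0.20 and -0.26, and Utp20, Rrp12 and Nat10 had -0.21, -0.41 and -0.44. In B16F10 the strongest of these 13 were Wdr43 with -0.79 (adjusted p = 0.0528) and Utp20 with -0.75 (adjusted p = 0.0810), followed by Rrp12 with -0.68, Nat10 with -0.61, Heatr1 with -0.60 and Utp4 with -0.60. Utp15, Noc4l, Rcl1 and Nob1 had -0.52, -0.48, -0.43 and -0.43, and Imp4 and Nop14 had -0.36 and -0.27.

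The large subunit factors had the lowest median of the 6 roles in B16F10. All 14 measured genes were below the control in every clone, against 31.9% of all tested genes, with a median of -0.78. Called lower were 5 (35.7%, against 0.386% of all tested genes): Ppan, Rrp1b, Nop2, Gnl3 and Wdr12. In NIH3T3 none of the 14 was called, where 7.87% of all tested genes were called higher and 7.35% lower. There 10 of the 14 were positive, against 5402 of 11643 tested genes, and the median was 0.06, against -0.04.

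Ppan, a factor needed for large subunit assembly, had the largest B16F10 change of all 47 genes. It had 730, 618 and 790 in NIH3T3 PGC7 arrays, against 676 in NIH3T3 control (0.07 ± 0.19, adjusted p = 0.856). It had 637, 725 and 586 in B16F10 PGC7 clones, against 1426 in B16F10 control (-1.13 ± 0.19, 2.19-fold lower, adjusted p = 0.0372). The difference between the lines was 1.20 ± 0.27 (adjusted p = 0.0375), and only the B16F10 groups stood apart.

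Rrp1b, a nucleolar partner of a protein phosphatase, had 1044, 1114 and 919 in B16F10 PGC7 clones, against 2025 in B16F10 control (-0.98 ± 0.16, adjusted p = 0.0301). In NIH3T3 it had 602, 641 and 653 in PGC7 arrays, against 671 in control (-0.09 ± 0.16, adjusted p = 0.774). Its 2 dimmer probe sets had -0.84 and -1.02 in B16F10 without being called.

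Nop2, a methyltransferase of the large subunit RNA, had 1428, 1376 and 1328 in B16F10 PGC7 clones, against 2517 in B16F10 control (-0.87 ± 0.13, adjusted p = 0.0242). It had 1430, 1343 and 1552 in NIH3T3 PGC7 arrays, against 1576 in NIH3T3 control (-0.13 ± 0.13, adjusted p = 0.575). The B16F10 clones were close together, and the NIH3T3 arrays were all slightly below their control.

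Gnl3 encodes nucleostemin, a nucleolar GTPase abundant in stem and tumour cells. It had 3793, 3324 and 3882 in NIH3T3 PGC7 arrays, against 3565 in NIH3T3 control (0.04 ± 0.12, adjusted p = 0.877). It had 3371, 3451 and 3300 in B16F10 PGC7 clones, against 5909 in B16F10 control (-0.81 ± 0.12, adjusted p = 0.0224). The NIH3T3 arrays lay on both sides of the control, and the lines differed by 0.84 ± 0.17 (adjusted p = 0.0254).

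Wdr12 forms a complex with Pes1 and Bop1 that acts in processing of the large subunit RNA. Wdr12 had 1187, 1228 and 1304 in NIH3T3 PGC7 arrays, against 1200 in NIH3T3 control (0.05 ± 0.13, adjusted p = 0.852). It had 2325, 2212 and 2122 in B16F10 PGC7 clones, against 3540 in B16F10 control (-0.67 ± 0.13, adjusted p = 0.0489). The NIH3T3 arrays lay around their control and the B16F10 clones below theirs, and the lines differed by 0.72 ± 0.18 (adjusted p = 0.0492). Its partners were below the control in every B16F10 clone without a call, Pes1 with -0.56 (adjusted p = 0.135) and Bop1 with -0.36 (adjusted p = 0.260). In NIH3T3 they had 0.15 and 0.17.

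Nop16, another large subunit factor, had 756, 770 and 994 in NIH3T3 PGC7 arrays, against 673 in NIH3T3 control (0.30 ± 0.18, adjusted p = 0.302). It had 1215, 1233 and 1212 in B16F10 PGC7 clones, against 2153 in B16F10 control (-0.81 ± 0.18, adjusted p = 0.0758). As with Rrp9, the groups lay on opposite sides of their controls, and only the difference of 1.12 ± 0.25 was called (adjusted p = 0.0351).

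The remaining large subunit genes fell short of a call in both lines. In B16F10 Noc3l had -0.94 (adjusted p = 0.0778), the methyltransferase Ftsj3 -0.89, Noc2l -0.76, Rrs1 -0.68, Ebna1bp2 -0.65 and the helicase Ddx18 -0.46. In NIH3T3 they had -0.24, 0.04, 0.27, 0.57, 0.11 and -0.02 in that order. There the other probe sets of Noc2l and Rrs1 had -0.90 (adjusted p = 0.120) and -0.06 (adjusted p = 0.812), opposite in sign. A dim probe set of Ebna1bp2 had 0.73 in B16F10 (adjusted p = 0.609), opposite to the bright one.

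Of 5 abundant nucleolar proteins and cofactors, 1 was called lower in B16F10, Mybbp1a (20%, against 0.386% of all tested genes). None was called in NIH3T3, where 7.87% of all tested genes were called higher and 7.35% lower. Npm1 encodes nucleophosmin, a histone and ribosome chaperone, and was the member above the control in every B16F10 clone. It had 24173, 24567 and 25283 in B16F10 PGC7 clones, against 22547 in B16F10 control (0.13 ± 0.12, adjusted p = 0.671). In NIH3T3 it had 24317, 20259 and 20510 in PGC7 arrays, against 25865 in control (-0.26 ± 0.12, adjusted p = 0.191), so all 3 lay below the control there.

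Ncl encodes nucleolin, which binds ribosomal RNA precursors, and its probe sets gave different sizes. At the brightest it had 14964, 14950 and 15640 in B16F10 PGC7 clones, against 19033 in B16F10 control (-0.33 ± 0.13, adjusted p = 0.286). It had 13664, 11806 and 14955 in NIH3T3 PGC7 arrays, against 14693 in NIH3T3 control (-0.13 ± 0.13, adjusted p = 0.560). A dimmer Ncl probe set had 1197, 1076 and 1093 in B16F10 PGC7 clones, against 3043 in B16F10 control, and was called lower with -1.43 (adjusted p = 0.0278). Of the others, a pair of intermediate signal had -1.18 and -0.47, without a call. All B16F10 clones were below the control at these 4 probe sets, and the size of the change differed between them.

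Mybbp1a encodes a nucleolar protein that takes part in ribosomal RNA synthesis and processing. It had 5283, 5116 and 6601 in NIH3T3 PGC7 arrays, against 4652 in NIH3T3 control (0.27 ± 0.15, adjusted p = 0.263). In B16F10 it had 4815, 4799 and 4628 in PGC7 clones, against 8179 in control (-0.78 ± 0.15, adjusted p = 0.0496). The groups lay on opposite sides of their controls, and the difference was 1.06 ± 0.21 (adjusted p = 0.0224). Nolc1, a chaperone of small nucleolar ribonucleoproteins, had -0.46 in NIH3T3 and -0.83 in B16F10, and the helicase Ddx21 had -0.04 and -0.71, none of them called.

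Across all 91 tested probe sets, 85 were negative in B16F10, with 12 called lower (13.2%) and 0 higher, against 0.265% lower and 0.923% higher of all tested probe sets. Of the 31 genes with several tested probe sets, 27 were negative at all of them. In NIH3T3 36 probe sets were positive and 55 negative, with 6 called lower (6.59%) and 0 higher, against 6.32% lower and 6.47% higher of all tested probe sets. In NIH3T3 14 of the 31 genes had probe sets of both signs.

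Tested directly, the change was higher in NIH3T3 than in B16F10 for 8 of the 47 genes (17.0%), against 4.05% of all tested genes. It was lower for 0, against 4.89% of all tested genes. By limma, 25 of the 47 (53.2%) reached an unadjusted p under 0.05, against 26.8% of all tested genes. The 8 genes were Rrp9, Ppan, Wdr75, Nop16, Mybbp1a, Gnl3, Wdr12 and Nop58. The median difference was 0.54, and 42 of the 47 differences were positive. The count of 8 was 18 without the NIH3T3 uncloned array, 4 without NIH3T3 clone 1 and 5 without NIH3T3 clone 2, where 9.34%, 2.76% and 2.95% of all tested genes were called the same way. It was 0, 1 and 2 without B16F10 clones 1, 2 and 3, where 1.84%, 2.37% and 2.00% were.

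**Figure D2:**
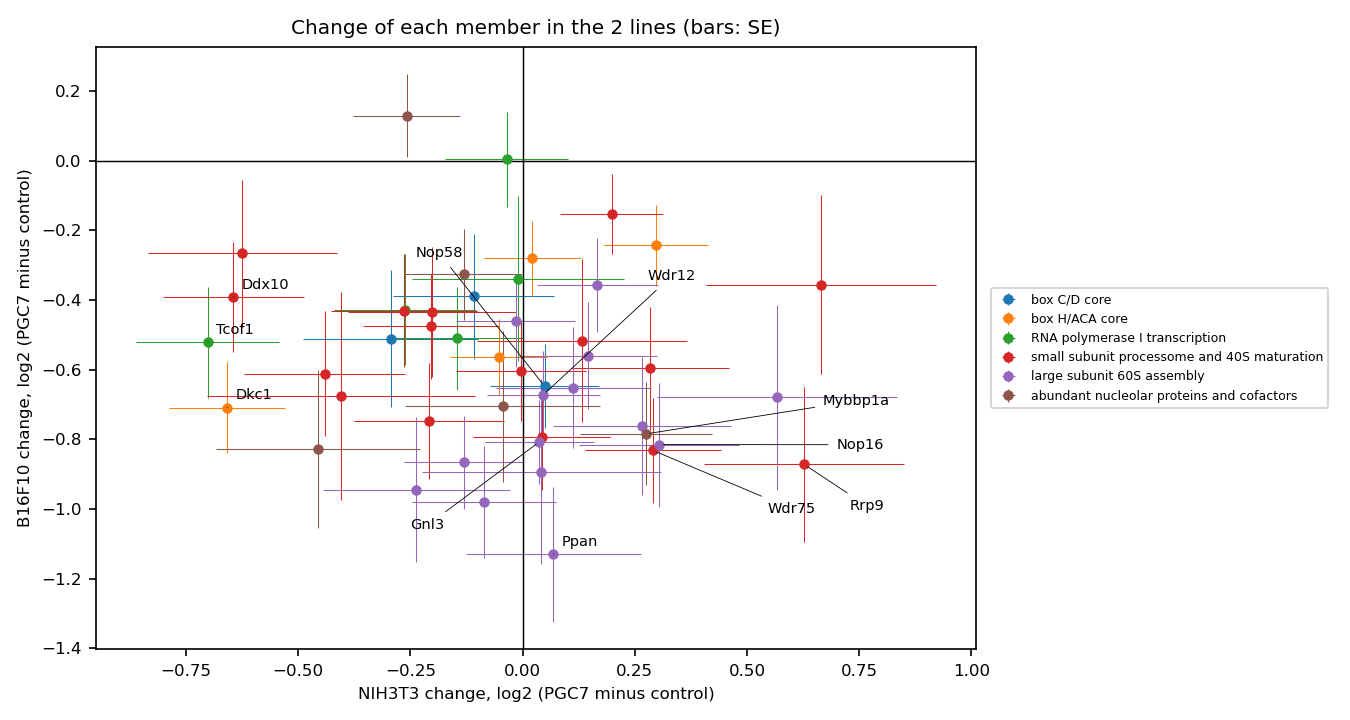
Change of each gene in NIH3T3 (horizontal) and in B16F10 (vertical), both in log2(signal + 9) as PGC7 minus control, with bars for the standard error of the limma fit and colours for the role. Named are the 8 genes called for the line difference and the 3 called in NIH3T3; nearly all points lie below 0 on the vertical axis and on both sides of 0 on the horizontal one.

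Mycn rose in NIH3T3 at its brightest probe set. It had 15482, 15838 and 12741 in NIH3T3 PGC7 arrays, against 64.0 in NIH3T3 control (7.65 ± 0.25, adjusted p = 7.13e-06). In B16F10 the same probe set had 29.8, 40.04 and 47.4 in PGC7 clones, against 19.1 in control (0.76 ± 0.25, adjusted p = 0.202). The NIH3T3 groups were far apart, and the B16F10 levels were low throughout.

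The other Mycn probe sets did not follow it. The next brightest had 121, 56.0 and 20.5 in NIH3T3 PGC7 arrays, against 102 in NIH3T3 control (-0.82 ± 0.80, adjusted p = 0.553). The dimmest Mycn probe set had 6.09, 19.7 and 5.85 in NIH3T3 PGC7 arrays, against 299 in NIH3T3 control, and did not pass the filter on low signal. The rise thus rests on 1 of the 3 Mycn probe sets, and the sources used here do not say which part of the transcript each of them reads.

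Myc itself was not called. It had 1576, 1254 and 2759 in NIH3T3 PGC7 arrays, against 1705 in NIH3T3 control (0.05 ± 0.36, adjusted p = 0.952). It had 2285, 2563 and 1937 in B16F10 PGC7 clones, against 3063 in B16F10 control (-0.45 ± 0.36, adjusted p = 0.625). In NIH3T3 only the uncloned array was above the control, while all B16F10 clones were below theirs.

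Beside the Mycn signal, the median signal of the 47 genes was 1430.5, 1349 and 1552 in NIH3T3 PGC7 arrays, against 1576 in NIH3T3 control. It was 1881, 1830 and 1908 in B16F10 PGC7 clones, against 2695 in B16F10 control. Over all tested genes it was 649, 652 and 657 in NIH3T3 PGC7 arrays, against 687 in NIH3T3 control. Where Mycn was high at its brightest probe set, the median signal of the 47 genes was thus not above the control under trimmed-mean scaling. The same held for all tested genes. Under spike scaling the median NIH3T3 change of the 47 genes was 0.18, against 0.15 over all tested genes.

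**Figure D3:**
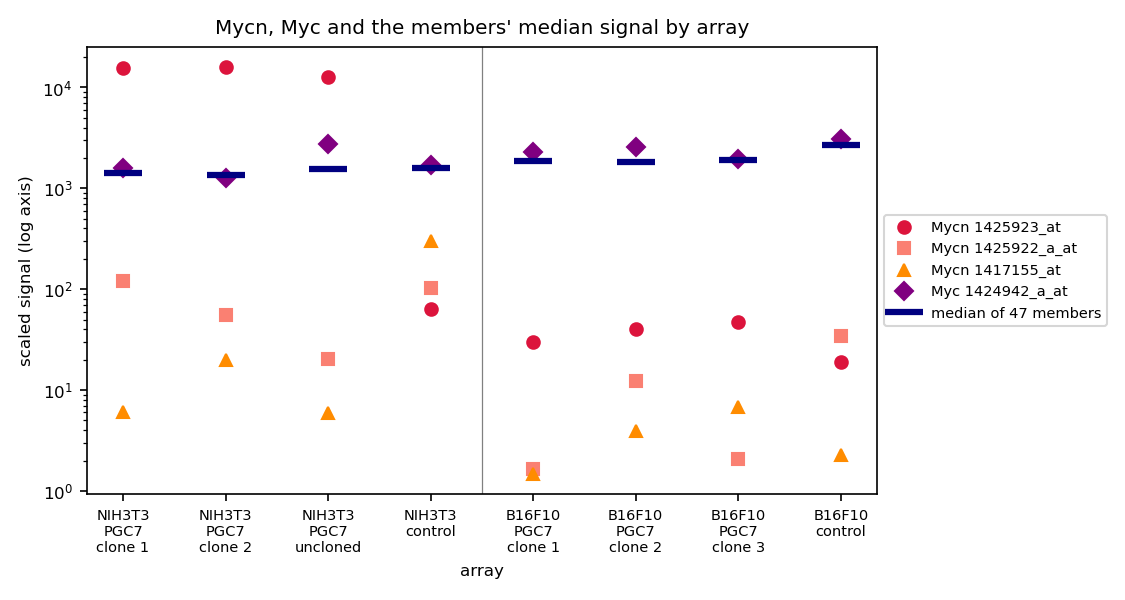
Scaled signal on a log axis in each of the 8 arrays for 3 Mycn probe sets, 1 Myc probe set and the median of the 47 genes (bars), with the PGC7 arrays of a line left of its control. The brightest Mycn probe set lies at 12741 to 15838 in the NIH3T3 PGC7 arrays against 64.0 in NIH3T3 control, while the median of the 47 genes lies at 1349 to 1552 against 1576.

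The E-box CACGTG, the element that Myc and Mycn bind with their partner Max, was looked for in promoters from RefSeq on build GRCm38.p6. The windows run from 250 bases before to 50 after each annotated start, and the motif reads the same on both strands. Promoters were found for 41 of the 47 genes, and not for Tcof1, Bop1, Rrs1, Rrp12, Fbl and Npm1. The motif stood in 7 of the 41 genes (17.1%), against 8.09% of all genes of the table and 8.91% of its protein-coding genes. A match describes letters in this window and shows no binding. Nop2 and Mybbp1a, both called lower in B16F10, are shown with their whole windows, E-box in capitals, on the plus strand at chr6:125131633-125131932 and chr11:72441077-72441376. The E-box starts at position -60 from the annotated start in Nop2 and at position 40 in Mybbp1a.
Nop2: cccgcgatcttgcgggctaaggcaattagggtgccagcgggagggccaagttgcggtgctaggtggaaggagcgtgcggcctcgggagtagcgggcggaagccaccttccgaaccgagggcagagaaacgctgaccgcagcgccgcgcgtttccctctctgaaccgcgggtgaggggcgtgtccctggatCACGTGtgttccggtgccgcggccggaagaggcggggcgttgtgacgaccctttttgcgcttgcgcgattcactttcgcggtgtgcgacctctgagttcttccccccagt
Mybbp1a: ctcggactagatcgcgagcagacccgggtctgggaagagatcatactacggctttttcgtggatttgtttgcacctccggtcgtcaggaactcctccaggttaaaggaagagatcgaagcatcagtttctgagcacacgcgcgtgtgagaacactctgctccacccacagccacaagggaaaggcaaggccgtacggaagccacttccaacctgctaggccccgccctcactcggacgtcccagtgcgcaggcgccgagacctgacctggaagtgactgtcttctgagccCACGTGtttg

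The other 5 genes with an E-box are Imp4, Pes1, Utp4, Wdr43 and Utp20, and the letters around it are shown to set their flanks side by side, with capitals as before. Their windows are chr1:34439579-34439878, chr11:3963725-3964024, chr8:106893390-106893689 and chr17:71615965-71616264 on the plus strand, and chr10:88826765-88827064 on the minus strand.
Imp4: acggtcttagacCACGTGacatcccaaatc
Pes1: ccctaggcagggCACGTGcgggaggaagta
Utp4: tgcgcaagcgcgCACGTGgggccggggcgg
Wdr43: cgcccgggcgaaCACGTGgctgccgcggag
Utp20: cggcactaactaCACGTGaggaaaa

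The 7 genes with the motif had a median change of 0.15 in NIH3T3 and -0.75 in B16F10, and the 34 without it had -0.03 and -0.58. With the E-box in the window, Imp4 had the highest NIH3T3 change of the 7 (0.66) and Utp20 the lowest (-0.21). None of the 7 was called in NIH3T3, where 7.87% of all tested genes were called higher and 7.35% lower.

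Further genes of the same machinery were taken from lists chosen by function. Of 74 further ribosome biogenesis factors, 68 (91.9%) lay below the control in all 3 B16F10 clones, against 31.9% of all tested genes. Their median was -0.41, against 0.05 over all tested genes. Mdn1, an ATPase that remodels the large subunit (-1.19 ± 0.18, adjusted p = 0.0207), and Rrp15 (-0.93 ± 0.17, adjusted p = 0.0474) were called lower there and 0 of the 74 higher. Those 2 are 2.70% of the list, against 0.386% of all tested genes. In NIH3T3 their median was 0.01, and 6 were called higher (8.11%) and 1 lower (1.35%), against 7.87% and 7.35% of all tested genes.

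The largest rises of that list in NIH3T3 were those of Eif6, a factor that keeps the subunits apart (1.11 ± 0.12, adjusted p = 0.000878), Senp3, a SUMO protease (0.97 ± 0.13, adjusted p = 0.00287), and Pelp1 (0.62 ± 0.15, adjusted p = 0.0291). Pelp1 and Senp3 work together in large subunit maturation. Dimt1, a methyltransferase of the small subunit RNA, fell (-0.65 ± 0.16, adjusted p = 0.0324). Of the 9 tested among further RNA polymerase I genes none was called in either line, with medians of 0.05 in NIH3T3 and -0.46 in B16F10. Of all tested genes 7.87% were called higher and 7.35% lower in NIH3T3, and 1.18% and 0.386% in B16F10.

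Ribosomal proteins, the products that these factors assemble, did not share the B16F10 shift. Of 78 listed, 42 were tested. Of these, 28 (66.7%) lay above the control in all 3 B16F10 clones and 5 (11.9%) below, against 41.3% and 31.9% of all tested genes. Their median was 0.14, against 0.05 over all tested genes. None was called there, where 1.18% of all tested genes were called higher and 0.386% lower. In NIH3T3 the median was -0.01, and 2 of 42 (4.76%, against 7.35% of all tested genes), Rps25 (-0.86 ± 0.17, adjusted p = 0.0130) and Rpl14 (-0.80 ± 0.14, adjusted p = 0.00885), were called lower. Many ribosomal protein genes have near-identical pseudogenes, which array probes can also read. Their median signal was 21870, 23838 and 25011 in B16F10 PGC7 clones against 21248 in B16F10 control. The 47 genes had 1881, 1830 and 1908 against 2695. Whether so bright a signal limits the change that can be seen was not tested.

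The small nucleolar RNA host genes carry guide RNAs of the ribonucleoproteins above in their introns. Of 12 tested, 0 rose and 3 fell in B16F10 (25%, against 0.386% of all tested genes), with a median of -0.73: Snhg3 (-1.84 ± 0.26, adjusted p = 0.0172), Snhg5 (-1.60 ± 0.24, adjusted p = 0.0219) and Snhg17 (-1.26 ± 0.23, adjusted p = 0.0477). In NIH3T3 the median was -0.21, and 2 fell (16.7%, against 7.35% of all tested genes), Snhg4 (-0.88 ± 0.25, adjusted p = 0.0491) and Snhg12 (-0.71 ± 0.20, adjusted p = 0.0477).

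Of 29 other growth genes known as Myc targets, 4 rose (13.8%) and 1 fell (3.45%) in NIH3T3, against 7.87% and 7.35% of all tested genes, with a median of 0.21. The rises were led by Polr3g, a subunit of RNA polymerase III (1.96 ± 0.22, adjusted p = 0.00110), the cap-binding factor Eif4e (0.87 ± 0.10, adjusted p = 0.00129) and C1qbp (0.54 ± 0.11, adjusted p = 0.0162), while the cyclin gene Ccnd2 fell (-0.77 ± 0.11, adjusted p = 0.00305). In B16F10 0 rose and 2 fell (6.90%, against 0.386% of all tested genes), the spermidine synthase gene Srm (-0.88 ± 0.11, adjusted p = 0.0140) and Ctps, which makes cytidine triphosphate (-0.71 ± 0.12, adjusted p = 0.0376), with a median of -0.17.

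Among 12 tested genes of the Myc network itself, Mycn, Mxi1 (1.05 ± 0.25, adjusted p = 0.0278) and Mnt (0.63 ± 0.16, adjusted p = 0.0388) rose in NIH3T3. These are 25% of the list, against 7.87% of all tested genes. That share counts Mycn, whose rise was known beforehand, so it says nothing about the list as a whole. Mxi1, Mnt and Mxd4 encode repressors that compete with Myc for Max. Mxd4 fell in NIH3T3 (-1.74 ± 0.21, adjusted p = 0.00141) and rose in B16F10 (1.60 ± 0.21, adjusted p = 0.0140), the only call of this list in B16F10. It is 8.33% of the list, against 7.35% of all tested genes lower in NIH3T3 and 1.18% higher in B16F10.

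**Figure D4:**
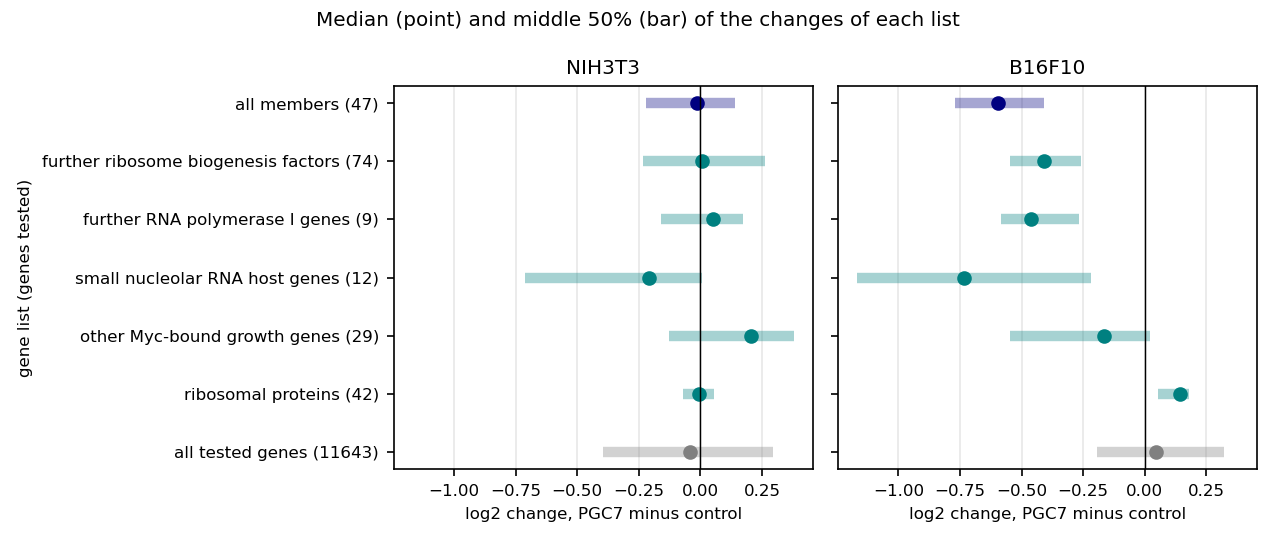
Median (point) and middle 50% (bar) of the log2 changes, PGC7 minus control, of each gene list in NIH3T3 (left) and B16F10 (right), with the number of genes tested in parentheses. In B16F10 the 47 genes (-0.60), the further biogenesis factors (-0.41) and the small nucleolar RNA host genes (-0.73) lie below 0, and ribosomal proteins (0.14) and all tested genes (0.05) above it.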

How the data were processed

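Intensity values on a linear scale, 1 per probe set, were those the authors deposited, made with MAS5 per the submitters' processing notes; its version and settings are not given in the sources used here. Trimmed means as deposited were 500.003 in each B16F10 array and 143 to 189 in the NIH3T3 arrays, so every array was scaled to a trimmed mean of 500 with 2% cut from each end. Of 45101 probe sets, 64 controls were set aside, 19801 were removed because their mean log2 value fell short of the overall median, a signal of 49.3, in NIH3T3 and in B16F10, and 25236 were tested. Names came from the platform annotation (34958 probe sets with 1 symbol, 932 with several, 9211 with none), updated through RefSeq's GRCm38.p6 gene table.

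Values were taken as log2(signal + 9), 9 being the rounded 25th percentile. A model of 4 group means over all 8 arrays was fitted with limma 3.58.1 in R 4.3.3, with an intensity trend in the variance prior (8.50 degrees of freedom), for 3 two-sided comparisons: PGC7 minus control in each line and their difference. Adjusted p-values are over all tested probe sets. The fit was tested on simulated data with independent noise and the same spread in both lines and in the controls. The simulation therefore cannot test those assumptions. Every listed gene was named under its role, with all arrays given for 7 preset genes, the called genes, and Mycn and Myc; of other lists, at most 3 called genes each way. Members and lists were chosen with earlier results of these data known. Alternatives were scaling, pseudocount, filter, variance trend, probe set choice, each line alone and leaving out each array.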

Additional observations from a re-analysis of the deposited data

Results flagged for a closer look

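For 8 genes the change in NIH3T3 was higher than the change in B16F10, by limma's test of the difference itself at an adjusted p under 0.05. These are 17.0% of the 47 genes, against 4.05% of all tested genes. The difference, on the log2(signal + 9) scale, was 1.50 for Rrp9, 1.20 for Ppan, 1.12 for Wdr75, 1.12 for Nop16, 1.06 for Mybbp1a, 0.84 for Gnl3, 0.72 for Wdr12 and 0.70 for Nop58. Each has all 3 B16F10 clones below the B16F10 control, as had 95.7% of the 47 genes and 31.9% of all tested genes. In Rrp9, Wdr75, Nop16 and Mybbp1a all 3 NIH3T3 PGC7 arrays lay above the NIH3T3 control. That held for 25.5% of the 47 genes and 31.2% of all tested genes. The 8 genes were picked by their difference, so these positions follow in part from that choice. Any array batch cannot be told apart from the cell line.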

How the results depend on the processing

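The direction of the B16F10 shift held in every alternative run. Of 47 genes, 44 to 47 were negative, or 42 of 43 with unmarked probe sets. Their median stood 0.57 to 0.67 below that of all tested genes. Every run set the clones against the same B16F10 control array, so this does not show how far the shift depends on that array. The counts of calls did not hold, and the shares of all tested genes called moved too. The 9 genes lower in B16F10 became 0 with the values as deposited, 2 with quantile normalization and 43 with poly-A spike scaling. Of all tested genes 0.139%, 0.253% and 9.81% were called lower in those runs. The 9 became 3 with no filter, 0 with no variance trend and 29 with the arrays of the line alone. There 0.143%, 0.0258% and 4.29% of all tested genes were called lower. When 1 array was left out the 9 became 0 to 25, where 0.0346% to 3.40% of all tested genes were. The 3 genes lower in NIH3T3 became 0 with the values as deposited, with spike scaling, with no variance trend and with the line alone. Of all tested genes 6.43%, 3.31%, 4.35% and 2.11% were called lower in those runs. When 1 array was left out the 3 became 1 to 5, where 4.39% to 14.5% of all tested genes were lower. The 0 higher became 0 to 2, where 5.31% to 13.3% of all tested genes were higher. The 8 line differences became 0 with the values as deposited, 30 with spike scaling and 4 with no filter. Of all tested genes 1.53%, 16.6% and 1.82% were called the same way in those runs. The 8 became 0 with no variance trend and 5 with probe sets free of an x, s or a mark, where 1.70% and 3.73% were. When 1 array was left out the 8 became 0 to 18, where 1.84% to 9.34% of all tested genes were called the same way. The median change in NIH3T3 was -0.14 with the values as deposited (all genes -0.16) and 0.18 with spike scaling (all genes 0.15), and that in B16F10 -1.20 with spike scaling (all genes -0.53). The genes called in the report kept their direction, against the same control arrays, in all 152 B16F10, 51 NIH3T3 and 127 difference values recomputed. Of these values 74, 31 and 71 passed the threshold. Leaving out an NIH3T3 array keeps the B16F10 change of every probe set. The B16F10 count could then move only through the variance shared by the lines, the probe sets tested and which of them stood for a gene. The cause of the other moves was not tested. No paired analysis was possible because each control is 1 array, so PGC7 and control of a line share fewer than 2 replicate numbers.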

Other observations

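In the PGC7 arrays the 47 genes had a median log2 level 0.19 lower in NIH3T3 than in B16F10, with 18 of 47 higher in NIH3T3; in the controls it was 0.69 lower, with 8 of 47 higher in NIH3T3. These levels rest on the trimmed-mean scaling and were not tested. The median SD of the 47 genes among the 3 PGC7 arrays was 0.147 in NIH3T3 and 0.0838 in B16F10, against 0.211 and 0.116 over all tested genes (log2).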
